A study of Mus musculus with 4 samples.

Results

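The phagocyte NADPH oxidase genes Cybb, Cyba, Ncf1, Ncf4 and Rac2 and the antioxidant enzyme genes Sod2, Gpx1, Prdx1 and Txnrd1 were followed through the leukocytes of mouse skin wounds. These 9 genes were chosen by symbol for their function from the 31053 genes of the count matrices, and each symbol had 1 row. No rule on their measured values was used, but earlier results of these data were known when they were chosen. CD45+ cells negative for propidium iodide had been sorted from 3 mm excisional wounds of 8-week-old male mice and sequenced with a droplet 3' single-cell kit (Chromium V3). There were 4 libraries, 1 for each combination of genotype (Angptl4+/+ or Angptl4-/-, strain C57BL6/J in the labels) and time (1 or 5 days postwounding, dpw). Angptl4-/- mice lacked the gene in all their cells. The wild-type mice were bought and the Angptl4-/- mice came from a mutant mouse repository, so genotype and colony of origin cannot be told apart, and the number of mice behind a library is not given in the sources used here. With 1 library per group there was no test between groups, and the 95% intervals below cover counting error only.

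In a phagocyte the oxidase passes electrons from NADPH to oxygen and makes superoxide in the phagosome or outside the cell. Its membrane part is a pair of proteins, gp91phox (Cybb) and p22phox (Cyba), and it is switched on when cytosolic parts, among them p47phox (Ncf1), p40phox (Ncf4) and the GTPase Rac2, arrive at the membrane. Superoxide dismutase 2 (Sod2) turns superoxide into hydrogen peroxide in mitochondria, glutathione peroxidase 1 (Gpx1) and peroxiredoxin 1 (Prdx1) reduce peroxides, and thioredoxin reductase 1 (Txnrd1) uses NADPH to regenerate the thioredoxin that peroxiredoxins consume.

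The promoters of the members with the largest differences between cell types or neutrophil clusters are shown for reference, as 300 bases from 250 before to 50 after a RefSeq transcription start (build GRCm38.p6), written 5' to 3' along the gene. Capitals mark matches on either strand to a PU.1 core (GAGGAA), an AP-1 site (TGANTCA), an antioxidant response element core (TGACNNNGC) or an NF-kB motif.
Cybb, chrX:9469275-9469574 (minus strand): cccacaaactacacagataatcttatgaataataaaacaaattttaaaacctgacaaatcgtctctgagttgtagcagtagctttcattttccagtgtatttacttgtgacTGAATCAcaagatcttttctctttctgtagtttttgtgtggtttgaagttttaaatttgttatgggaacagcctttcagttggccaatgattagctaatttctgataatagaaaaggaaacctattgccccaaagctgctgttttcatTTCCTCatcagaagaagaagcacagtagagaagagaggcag
Prdx1, chr4:116685349-116685648 (plus strand): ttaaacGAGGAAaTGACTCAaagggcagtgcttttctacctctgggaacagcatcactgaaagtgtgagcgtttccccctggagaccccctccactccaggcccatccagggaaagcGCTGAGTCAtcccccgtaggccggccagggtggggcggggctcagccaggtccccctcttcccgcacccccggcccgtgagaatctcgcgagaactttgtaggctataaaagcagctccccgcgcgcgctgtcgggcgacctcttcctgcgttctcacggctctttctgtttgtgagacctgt
Gpx1, chr9:108338830-108339129 (plus strand): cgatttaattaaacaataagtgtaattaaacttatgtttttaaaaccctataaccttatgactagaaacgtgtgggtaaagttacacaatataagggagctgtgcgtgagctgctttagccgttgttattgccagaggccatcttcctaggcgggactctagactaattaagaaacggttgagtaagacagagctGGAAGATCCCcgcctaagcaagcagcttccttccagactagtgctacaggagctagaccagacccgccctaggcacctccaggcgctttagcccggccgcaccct
Sod2, chr17:13007589-13007888 (plus strand): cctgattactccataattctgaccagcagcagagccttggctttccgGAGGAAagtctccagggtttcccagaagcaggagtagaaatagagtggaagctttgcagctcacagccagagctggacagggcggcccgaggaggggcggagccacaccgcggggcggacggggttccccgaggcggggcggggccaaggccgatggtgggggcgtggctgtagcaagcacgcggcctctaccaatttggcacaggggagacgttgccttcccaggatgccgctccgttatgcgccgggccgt
The table held promoters for 7 of the 9 genes, all but Ncf4 and Rac2. Over the 32851 mouse promoters counted, with 1 chromosome left out, 28.3% held the PU.1 core, 12.4% the antioxidant response element core, 7.81% the AP-1 letters and 1.47% the NF-kB letters. Cybb held an AP-1 match at -139 and a PU.1 core at 9, counted from the start. Prdx1 held a PU.1 core at -244, an AP-1 match at -237, and an antioxidant response element core at -133 that overlapped a second AP-1 match at -131. Gpx1 held an NF-kB match at -55 and Sod2 a PU.1 core at -203. Of the promoters not printed, Txnrd1 held PU.1 cores at -169 and -84 of 1 start and an antioxidant response element core at -92 of another, and Cyba and Ncf1 held none of the 4 motifs. A match describes the letters only and was not set against the expression values.

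In the annotation of GRCm38 the 9 genes lay on 8 chromosomes, with Ncf4 (chr15:78244801-78262580) and Rac2 (chr15:78559167-78572783) on the same one. Of the distinct 31-base sequences in their transcripts, 26.6% of those of Sod2, 15.2% of those of Prdx1 and 7.30% of those of Cyba also occurred in another gene, so the counts of these genes are uncertain. The largest single overlaps were of Sod2 with the lincRNA AC166110.4 (22.0%) and of Prdx1 with the pseudogene Gm21399 (9.71%). Cyba overlaps Gm20388 and Ncf1 overlaps Gtf2ird2 on the opposite strand, and Txnrd1 overlaps Eid3 on its own strand.

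The files held 20069 cell barcodes and 26981596 to 32962595 unique molecular identifiers (UMIs) per library. Of these barcodes, 19827 had at least 200 detected genes and at most 10% mitochondrial UMIs, with a median of 3735.5 to 4975.5 UMIs per cell, and 18 to 33 barcodes of a library recurred in another. Angptl4 itself had 47 and 78 UMIs in the Angptl4+/+ libraries at 1 and 5 dpw and 0 in both Angptl4-/- libraries. Clustering without the members gave 12 clusters, of which 6 were neutrophil-like by their markers, 2 macrophage-like, and 1 each like B cells, NK/T cells, dendritic cells and monocytes. The 55 B cell-like cells were too few to compare. The level of a gene is its summed UMIs per 1000000 UMIs of the class (CPM). Unless said otherwise, values over the 4 libraries are in the order Angptl4+/+ 1 dpw, Angptl4+/+ 5 dpw, Angptl4-/- 1 dpw, Angptl4-/- 5 dpw.

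Cybb, which encodes the catalytic subunit, separated the classes most widely among the oxidase genes at the level of transcripts. Neither protein nor oxidase activity was measured in these libraries. Monocyte-like cells held 1509, 1606, 1490 and 1702 CPM, macrophage-like cells 601, 886, 573 and 709 CPM, and neutrophil-like cells 73.7, 32.4, 95.3 and 35.9 CPM. Dendritic cell-like cells lay between the last 2 with 291, 198, 253 and 184 CPM. The ranges of these 4 classes did not overlap. NK/T cell-like cells held 79.1, 28.2, 232 and 33.0 CPM, which overlapped the neutrophil-like and the dendritic cell-like range. The value of 232 CPM rested on 67 UMIs in 36 cells. In cells thinned to 1000 UMIs, 73.9 to 79.9% of monocyte-like and 33.0 to 51.3% of macrophage-like cells had a Cybb UMI (98.6 to 100% and 61.8 to 87.2% before thinning). The share was 2.36 to 7.42% in neutrophil-like cells (5.64 to 19.7% before) and 0 to 2.78% in NK/T cell-like cells (3.52 to 11.1% before), a class not known for the oxidase, with median depths of 3218 to 4683 and 6273.5 to 7147 UMIs. For the 36 NK/T cell-like cells at 0, the exact binomial interval reached 9.74%.

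Cyba, the partner without which gp91phox is not stable, was spread more evenly. It stood at 1522, 1708, 1445 and 1779 CPM in macrophage-like cells, at 1787, 1538, 1853 and 1635 CPM in monocyte-like cells, and at 689, 814, 719 and 759 CPM in neutrophil-like cells. The first 2 classes overlapped, and both lay above neutrophil-like cells. NK/T cell-like cells also held 759 to 813 CPM, within the span of the neutrophil-like cells.

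Among the cytosolic parts, Ncf1, the organiser that carries the others to the membrane, was lowest as CPM in monocyte-like cells of the 3 phagocyte classes, with 124, 157, 116 and 168 CPM against 249, 334, 282 and 283 CPM in macrophage-like and 225, 230, 220 and 193 CPM in neutrophil-like cells. As mean UMIs per cell, Ncf1 was 1.83, 1.45, 1.65 and 1.78 in monocyte-like and 1.14, 0.74, 1.09 and 0.68 in neutrophil-like cells. On that scale neutrophil-like cells were the lowest of these classes. Ncf4, which binds a phosphoinositide of the phagosome, ran from 198 to 225 CPM in macrophage-like, 221 to 306 CPM in neutrophil-like and 233 to 331 CPM in monocyte-like cells, and neighbours in this order overlapped. Rac2, the GTPase of blood cells that activates the complex, was 165, 220, 171 and 187 CPM in macrophage-like cells but 610, 449, 632 and 376 CPM in neutrophil-like cells, with monocyte-like cells between them at 468, 367, 469 and 317 CPM. In NK/T cell-like cells it was 737, 662, 640 and 630 CPM, which overlapped the highest neutrophil-like value. Thus the order of the classes differed from subunit to subunit, as the plot of levels by class shows.

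**Figure D1:**
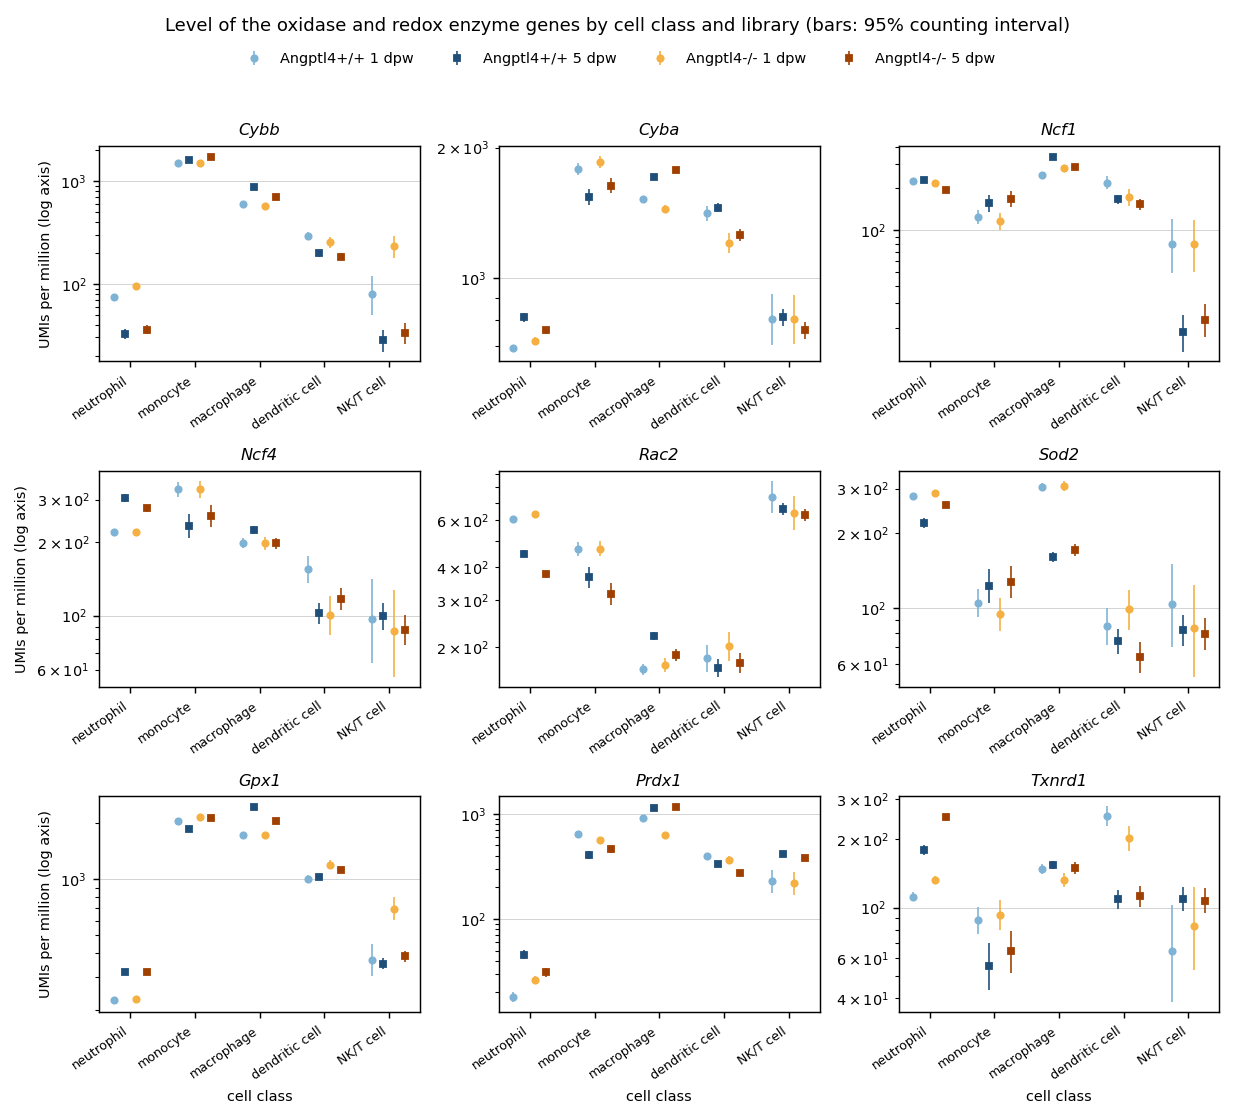
Level of each member (CPM, log axis) in 5 cell classes (each class is named from its markers, "-like"), with 1 point per library and bars for the 95% counting interval. Cybb, Gpx1 and Prdx1 stand higher in monocyte-like and macrophage-like cells than in neutrophil-like cells in all 4 libraries, while Rac2 is lower in macrophage-like cells.

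The antioxidant genes showed the same range of patterns. Gpx1 was 2038, 1852, 2161 and 2130 CPM in monocyte-like, 1726, 2434, 1718 and 2060 CPM in macrophage-like, 1002, 1023, 1197 and 1115 CPM in dendritic cell-like and 226, 317, 229 and 317 CPM in neutrophil-like cells. Prdx1 was 904, 1126, 629 and 1157 CPM in macrophage-like cells and 637, 409, 563 and 460 CPM in monocyte-like cells. Neutrophil-like cells held 18.0, 45.7, 26.1 and 31.1 CPM of it. For both genes the neutrophil-like values lay far below every other phagocyte class.

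Sod2 and Txnrd1 did not share this order. Sod2 was 304, 160, 307 and 171 CPM in macrophage-like and 281, 218, 287 and 259 CPM in neutrophil-like cells, which overlapped, against 94.6 to 128 CPM in monocyte-like and 63.9 to 98.9 CPM in dendritic cell-like cells. Txnrd1 was 148, 154, 132 and 149 CPM in macrophage-like, 112, 180, 132 and 250 CPM in neutrophil-like and 55.3 to 93.0 CPM in monocyte-like cells. Dendritic cell-like cells held 254 and 202 CPM of Txnrd1 at 1 dpw and 109 and 113 CPM at 5 dpw, the former above and the latter below every macrophage-like value.

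Ratios between classes within a library put these levels on a log2 scale. In macrophage-like against neutrophil-like cells, Cybb, Cyba, Gpx1 and Prdx1 were more than 1.5-fold higher in all 4 libraries, where 49.0% of the 7068 genes with at least 100 UMIs were. Rac2 alone was more than 1.5-fold lower in all 4, where 11.2% of genes were. The log2 ratios were 3.03, 4.77, 2.59 and 4.30 for Cybb, 2.93, 2.94, 2.90 and 2.70 for Gpx1 and 5.65, 4.62, 4.59 and 5.22 for Prdx1. The widest of their counting intervals ran from 4.60 to 4.95, for Cybb at 5 dpw in Angptl4+/+ wounds. For Rac2 they were -1.89, -1.03, -1.89 and -1.01.

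This contrast depended on the scale. The median of all genes itself was higher in macrophage-like cells by 1.43, 0.96, 1.45 and 0.88 on the log2 scale. Relative to that median, Cybb (1.14 to 3.82), Gpx1 (1.45 to 1.99) and Prdx1 (3.14 to 4.34) were still more than 1.5-fold higher in all 4 libraries (26.2% of genes), while Ncf4, Rac2, Sod2 and Txnrd1 were more than 1.5-fold lower (32.0%). Cyba changed sign on that scale at 1 dpw, with -0.29 in Angptl4+/+ and -0.44 in Angptl4-/- cells, against 0.11 and 0.35 at 5 dpw. As mean UMIs per cell, Rac2 was higher in macrophage-like cells at 5 dpw, by 0.36 and 0.74. Macrophage-like cells also carried more UMIs (medians of 5833 to 11474 against 3218 to 4683). At 1 dpw Rac2 had 1.28 (Angptl4+/+) and 1.17 (Angptl4-/-) UMIs per macrophage-like cell against 3.08 and 3.13 per neutrophil-like cell. At 5 dpw these were 1.85 and 2.21 against 1.44 and 1.32. Thus Rac2 was lower in macrophage-like cells both per cell and as a share at 1 dpw, and only as a share of a larger total at 5 dpw.

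RNA of other cells was measured in the same sums. The 10 macrophage markers had a summed level of 210 to 403 CPM in neutrophil-like and 11893.5 to 18828 CPM in macrophage-like cells. Per gene, neutrophil-like cells held a median of 0.247, 0.554, 0.169 and 0.309% of the macrophage-like level, and only Cd68 (32.2 to 37.0%) and Adgre1 (9.24 to 11.4%) exceeded 2.08%. For Prdx1 the same share was 1.99 to 4.16% and for Cybb 3.66 to 16.6%. NK/T cell-like cells held 25.5 to 37.2% of the macrophage-like level of Prdx1 and 3.18 to 40.5% of that of Cybb. The part of carried-over RNA in the low neutrophil values of these 2 genes was not tested.

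Monocyte-like against macrophage-like cells gave a different set. The 10 monocyte markers also summed to 3784 to 5458 CPM in macrophage-like cells, against 8279 to 9993 CPM in monocyte-like cells. The part of monocytes in the macrophage-like sums was not tested. Cybb and Rac2 were more than 1.5-fold higher in monocyte-like cells in all 4 libraries (6.68% of genes) and Ncf1 more than 1.5-fold lower (11.4%), also relative to the median of all genes. Cybb stood 1.33, 0.86, 1.38 and 1.26 higher on the log2 scale, Rac2 1.51, 0.74, 1.46 and 0.77, and Ncf1 had ratios from -1.28 to -0.76. Of the antioxidant genes, none passed in all 4. Sod2 was uneven, with ratios of -1.53 and -1.70 at 1 dpw and -0.39 and -0.42 at 5 dpw. Prdx1 was uneven the other way, farther apart at 5 dpw. It was 637 and 563 against 904 and 629 CPM at 1 dpw, and 409 and 460 against 1126 and 1157 CPM at 5 dpw.

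Against neutrophil-like cells, monocyte-like cells held more Cybb, Prdx1, Gpx1 and Cyba as CPM (37.3% of genes passed upward) and less Sod2 (16.2% downward) in all 4 libraries. The median gene was itself higher by 1.09, 0.31, 1.04 and 0.42, and relative to it Cyba no longer passed, leaving 3 members higher (26.3% of genes), while Ncf1, Rac2, Sod2 and Txnrd1 were lower (27.6%). The monocyte-like cluster was led by Chil3, Ace, Adgre4 and Plac8, and its cells had median depths of 9571 to 14668.5 UMIs. As mean UMIs per cell, Sod2 was 1.55, 1.13, 1.35 and 1.35 in monocyte-like and 1.42, 0.70, 1.42 and 0.91 in neutrophil-like cells. It was lower per monocyte-like cell only in Angptl4-/- wounds at 1 dpw. Rac2 per cell was 6.88, 3.38, 6.69 and 3.36 against 3.08, 1.44, 3.13 and 1.32, higher in monocyte-like cells in all 4 libraries. Dendritic cell-like cells, whose cluster was led by Fscn1, Ccl22 and Ccr7, held less Cybb, Sod2 and Prdx1 than macrophage-like cells by more than 1.5-fold in all 4 libraries (16.7% of genes), and none of the 9 genes was higher in all 4 (8.64%). The Cybb log2 ratios were -1.05, -2.16, -1.18 and -1.94. These values are of CPM, and dendritic cell-like cells had median depths of 13022 to 14143 UMIs. As mean UMIs per cell, Cybb and Sod2 were also lower in dendritic cell-like cells in all 4 libraries. Cybb at 1 dpw was then 4.26 against 4.68 (Angptl4+/+) and 3.45 against 3.93 (Angptl4-/-). Prdx1 per cell was higher in Angptl4-/- wounds at 1 dpw (4.98 against 4.32) and lower in every other library.

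**Figure D2:**
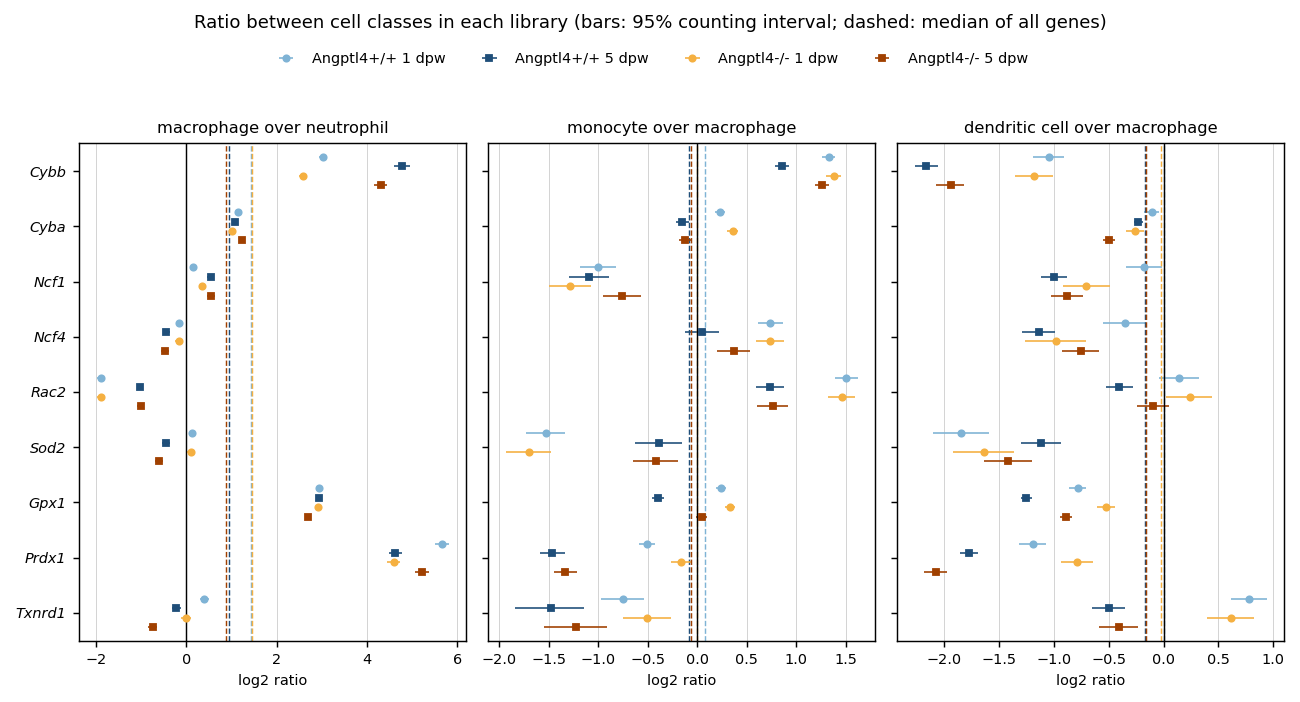
Log2 ratio of each member between cell classes (classes named from markers, "-like"), 1 point per library, with bars for the 95% counting interval and dashed lines for the median of all genes in the same library. In the first panel Cybb, Gpx1 and Prdx1 lie right of both 0 and the dashed lines in all 4 libraries, Rac2 lies left of both on this scale (not as UMIs per cell at 5 dpw), and Cyba lies right of 0 but left of the dashed lines at 1 dpw.

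The neutrophil-like class was itself uneven. Its 6 clusters were led by Cxcr2 and Dgat1 (cluster 0), Egr3, Tnf and Csf1 (cluster 2), Csf3 and Il1a (cluster 3), Ngp, Mmp8 and Ly6g (cluster 4), the interferon-induced genes Ifit1, Rsad2 and Isg15 (cluster 5), and Pdcd1lg2 and Cd274 (cluster 6). Sod2 spanned the widest range over them. In cluster 4 it was 33.3, 31.1, 29.7 and 53.8 CPM and in cluster 2 it was 628, 333, 689 and 422 CPM, and the highest cluster held 18.9, 11.4, 23.2 and 8.59 times the lowest. Cluster 4 was the lowest in all 4 libraries, while the highest was cluster 2, 3, 2 and 6.

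Prdx1 had 6.28 to 20.5 times more in the highest cluster than in the lowest, but its lowest cluster was 3, 4, 3 and 0, and cluster 3 was among the clusters with much Sod2 (401, 355, 434 and 351 CPM). It was 51.3, 104, 74.3 and 53.7 CPM in cluster 2 and 58.4, 68.5, 106 and 87.8 CPM in cluster 6, but 5.18 to 25.4 CPM in clusters 0, 3, 4 and 5, where it rested on 15 to 38 UMIs per cluster and library. Sod2 and Prdx1 were the members with at least a 4-fold span in all 4 libraries, as 13.3% of 3693 genes were. The clusters were drawn from other genes of the same cells, so these spans are descriptions.

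The oxidase genes ordered the clusters differently. Cyba was highest in cluster 4 (999, 1207, 1053 and 1109 CPM) and lowest in cluster 3 (390, 400, 390 and 404 CPM) in all 4 libraries. Rac2 had the same extremes, with 1058, 766, 1102 and 690 CPM in cluster 4 and 377, 219, 340 and 186 CPM in cluster 3. Ncf4 was highest in cluster 2 (354, 396, 354 and 357 CPM) and lowest in cluster 3 (160, 170, 142 and 163 CPM), Ncf1 was highest in cluster 2, and Cybb was lowest in cluster 0. Thus cluster 4, with the most Cyba and Rac2, was the one with the least Sod2. For Txnrd1 the extremes lay 1.46 to 2.80 times apart, with no cluster highest or lowest in all 4 libraries.

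Within the macrophage-like class, cluster 1, led by Arg1, Mmp12 and Fn1, was set against cluster 7, led by Ms4a7, Apoe and the complement genes C1qa, C1qb and C1qc. Ncf1, Sod2 and Txnrd1 were more than 1.5-fold higher as CPM in cluster 1 in all 4 libraries (4.79% of genes), and no member was lower (3.61%). Ncf1 was 292, 410, 344 and 361 CPM in cluster 1 and 170, 228, 209 and 206 CPM in cluster 7, a log2 ratio of 0.78, 0.85, 0.72 and 0.81. Prdx1 and Gpx1 leaned the same way without passing in all 4 libraries (0.50 to 1.25 and 0.47 to 0.83), and Rac2 leaned the other way (-0.89 to -0.31). Median depths were 5577, 6772.5, 4093 and 9989.5 UMIs in cluster 1 and 12014.5, 10531, 10375 and 12418 UMIs in cluster 7. As mean UMIs per cell, Ncf1 was 1.89, 3.03, 1.80 and 3.88 in cluster 1 and 2.10, 2.37, 2.26 and 2.70 in cluster 7. At 1 dpw Ncf1 was thus higher in cluster 1 only as a share of UMIs, and at 5 dpw on both scales.

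**Figure D3:**
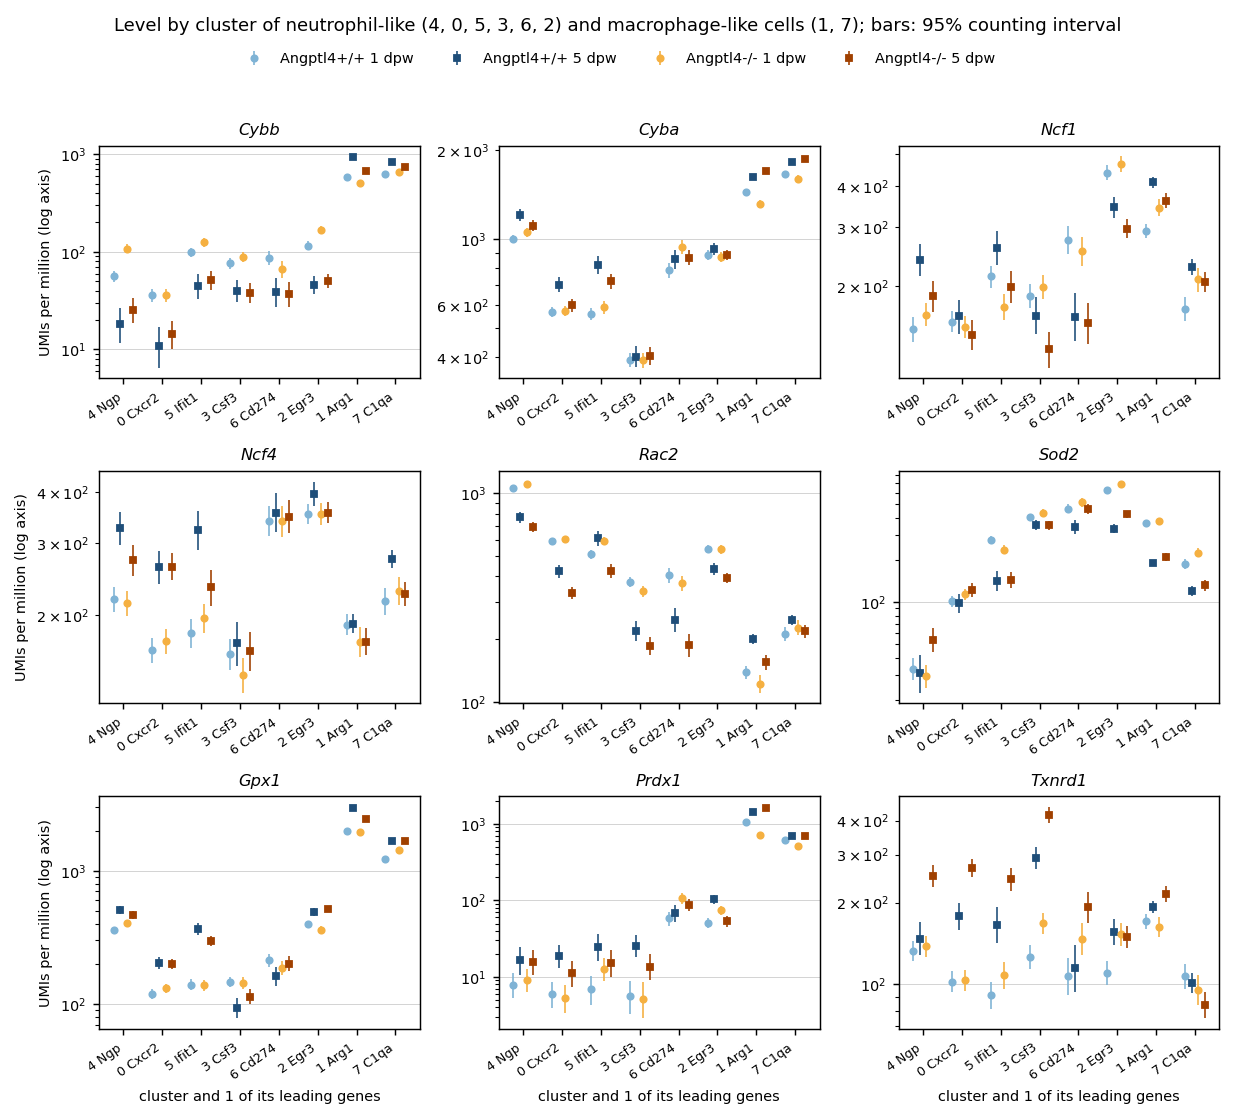
Level of each member (CPM, log axis) in the 6 neutrophil-like and 2 macrophage-like clusters, each named by its number and a leading gene, with 1 point per library and bars for the 95% counting interval. Of the neutrophil-like clusters, Sod2 is lowest in cluster 4 and highest in cluster 2, 3, 2 and 6 in the order of the libraries. Cyba and Rac2 are highest of the neutrophil-like clusters in cluster 4 and lowest in cluster 3, and Ncf1 is higher in cluster 1 than in cluster 7 on this scale (not as UMIs per cell at 1 dpw).

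Next, 5 dpw was compared with 1 dpw within each genotype and class. Neutrophil-like Cybb was lower at 5 dpw, at 32.4 against 73.7 CPM in Angptl4+/+ and 35.9 against 95.3 CPM in Angptl4-/- wounds, a log2 ratio of -1.18 and -1.41. The counting intervals of the levels did not overlap between the days in either genotype. It was the sole member more than 1.5-fold lower in both genotypes (3.2% of 6477 genes). The ratio was below 0 in each of the 6 neutrophil-like clusters in both genotypes, from -2.09 to -0.85. Txnrd1 was more than 1.5-fold higher in both, with 180 against 112 CPM and 250 against 132 CPM, or 0.68 and 0.92, but so were 48.3% of genes.

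The median gene was 0.65 (Angptl4+/+) and 0.68 (Angptl4-/-) higher in neutrophil-like cells at 5 dpw. Relative to it, Txnrd1 moved by 0.03 and 0.23, and 4 members were more than 1.5-fold lower in both genotypes (15.2% of genes). These were Cybb (-1.83 and -2.09), Rac2 (-1.09 and -1.43), Sod2 (-1.01 and -0.83) and Ncf1 (-0.62 and -0.87), and none was higher (14.9%). On the CPM scale Rac2 had ratios of -0.44 and -0.75, Sod2 -0.36 and -0.15, and Ncf1 0.03 and -0.19. Markers of neutrophils also differed, since the 10 listed genes summed to 232877 and 248174 CPM at 1 dpw and 134143 and 137842 CPM at 5 dpw, and the erythrocyte genes reached 1312 CPM in the Angptl4-/- library at 5 dpw against at most 3.71 CPM in the others. The part of these genes in the ratios was not tested.

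In macrophage-like cells Sod2 was the sole member more than 1.5-fold apart as CPM between the days in both genotypes. It was 160 CPM at 5 dpw against 304 CPM at 1 dpw in Angptl4+/+ and 171 against 307 CPM in Angptl4-/- wounds, a log2 ratio of -0.92 (-1.01 to -0.84) and -0.85 (-0.95 to -0.75), and more than 1.5-fold lower in both, as 7.2% of 7885 genes were. Both clusters showed it, with -0.96 and -0.85 in cluster 1 and -0.65 and -0.78 in cluster 7. As mean UMIs per cell, Sod2 fell from 2.37 to 1.35 in Angptl4+/+ but stood at 2.11 and 2.02 in Angptl4-/- cells. Neutrophil markers in the macrophage-like sums were 21882 and 18551 CPM at 1 dpw and 3722 and 4942 CPM at 5 dpw, all 10 of 10 detected, and their part in the Sod2 ratio was not tested.

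No member was more than 1.5-fold higher in macrophage-like cells of both genotypes at 5 dpw (10.3% of genes). Cybb (0.56 and 0.31), Gpx1 (0.50 and 0.26) and Cyba (0.17 and 0.30) were above 0 in both. Prdx1 was at 0.32 in Angptl4+/+ and 0.88 in Angptl4-/- cells, beyond 1.5-fold in the latter. Mast cell markers summed to 246 CPM (5 of 5 detected) in macrophage-like cells of the Angptl4-/- library at 5 dpw and to at most 2.29 CPM in the other 3, and their part in the Prdx1 ratio was not tested. The median gene differed by 0.15 and 0.07.

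In monocyte-like cells no member passed 1.5-fold in both genotypes (3.08% of genes higher, 3.2% lower). Cyba, Gpx1, Ncf4, Rac2, Prdx1 and Txnrd1 were below 0 in both, the last with 55.3 against 88.0 CPM and 64.1 against 93.0 CPM. In dendritic cell-like cells Txnrd1 was more than 1.5-fold lower (6.05% of genes), with ratios of -1.22 (-1.42 to -1.02) and -0.84 (-1.09 to -0.60), where the median gene was at -0.12 and -0.11. Neutrophil markers in these sums, 10 of 10 detected, were 5737 and 3789 CPM at 1 dpw and 1126 and 1198 CPM at 5 dpw, and their part in the ratio was not tested. At resolution 1.0, clusters led by Retnla and Mgl2, by Fscn1 and Ccl22, and by Siglech and Cd7 were named dendritic cell-like. The part of their mix in the ratio was not tested either. NK/T cell-like cells held more Prdx1 at 5 dpw, 419 against 230 CPM and 379 against 218 CPM (9.38% of genes passed upward and 9.63% downward), of 7 members with enough UMIs in both genotypes. Neutrophil markers summed to 23347 and 19806 CPM in these cells at 1 dpw and to 3456 and 3348 CPM at 5 dpw.

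**Figure D4:**
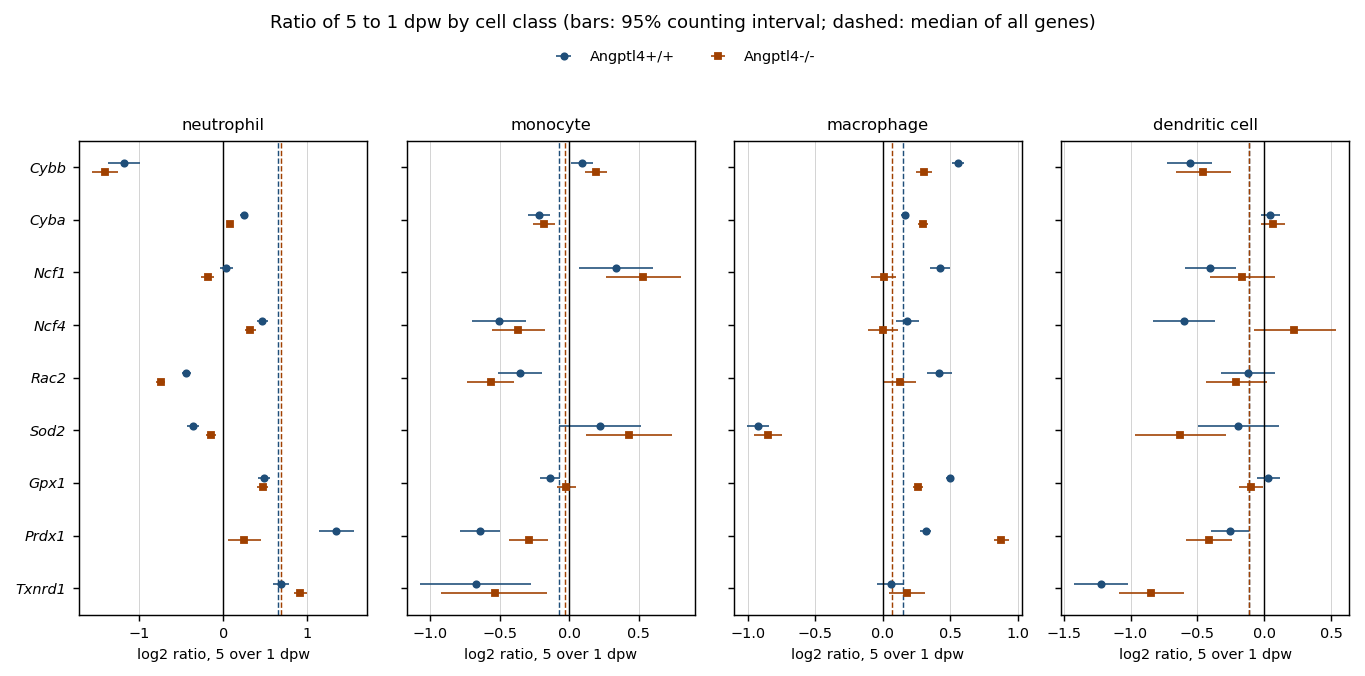
Log2 ratio of 5 to 1 dpw for each member in 4 cell classes (named from markers, "-like"), 1 point per genotype, with bars for the 95% counting interval and dashed lines for the median of all genes. Cybb in neutrophil-like cells (-1.18 and -1.41), Sod2 in macrophage-like cells (-0.92 and -0.85) and Txnrd1 in dendritic cell-like cells (-1.22 and -0.84) lie farthest left in both genotypes, and neutrophil-like Txnrd1 lies near the dashed lines.

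The comparison of Angptl4-/- with Angptl4+/+ wounds asked whether loss of Angptl4 went with a difference in these genes. No member with enough UMIs on both days was more than 1.5-fold apart in the same direction on both, with all 9 measured in 4 classes and 4 of 9 in NK/T cell-like cells, where 1.02% of genes were in neutrophil-like, 0.925% in monocyte-like, 0.685% in macrophage-like, 0.71% in dendritic cell-like and 1.7% in NK/T cell-like cells. Of the 18 neutrophil-like ratios (9 genes on 2 days), all lay within 1.5-fold. Txnrd1 in neutrophil-like cells was above 0 on both days, with 0.24 (0.16 to 0.33) at 1 dpw and 0.48 (0.39 to 0.56) at 5 dpw. It was above 0 at both times in 5 of the 6 clusters, all but cluster 2 (0.47 and -0.06), and passed 1.5-fold at 5 dpw in clusters 4 (0.76) and 6 (0.74). Sod2 also passed upward in cluster 4 at 5 dpw, and Prdx1 in cluster 6 at 1 dpw. Prdx1 passed downward in cluster 2 at 5 dpw. The share of all genes past 1.5-fold within a cluster on a single day is not given here. Cybb in cluster 4 was 108 against 56.1 CPM at 1 dpw, a ratio of 0.94 (0.70 to 1.19), and 25.3 against 18.1 CPM at 5 dpw, a ratio of 0.49 (-0.24 to 1.25) that rested on 48 and 25 UMIs.

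Prdx1 took opposite signs. In neutrophil-like cells it was 0.54 at 1 dpw and -0.56 at 5 dpw, and in macrophage-like cells -0.52 (629 against 904 CPM) at 1 dpw and 0.04 at 5 dpw. Macrophage-like Cybb was at -0.07 and -0.32, and monocyte-like Cybb at -0.02 and 0.08. The counting interval of Prdx1 in macrophage-like cells at 1 dpw ran from -0.58 to -0.47, which does not measure how far libraries of the same genotype would differ. In dendritic cell-like cells Ncf4 reached -0.63 (101 against 156 CPM) at 1 dpw and 0.20 at 5 dpw.

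**Figure D5:**
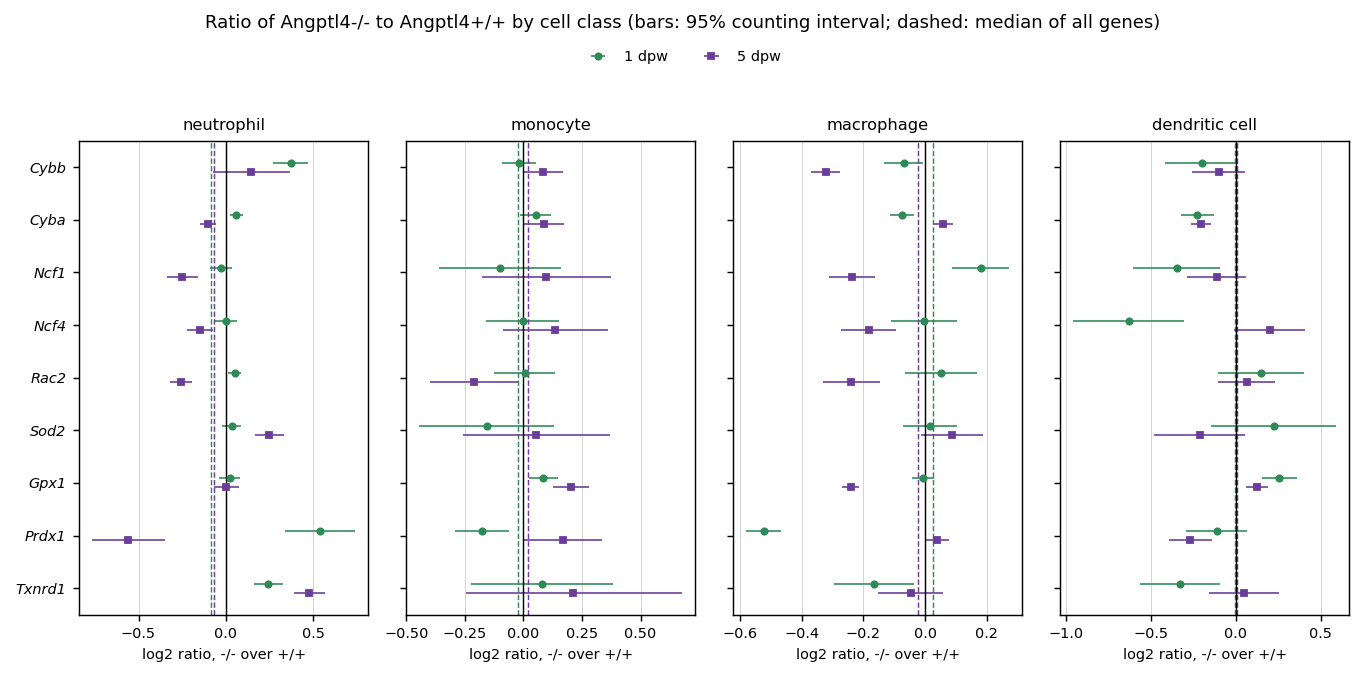
Log2 ratio of Angptl4-/- to Angptl4+/+ for each member in 4 cell classes (named from markers, "-like"), 1 point per time, with bars for the 95% counting interval and dashed lines for the median of all genes. In neutrophil-like cells Prdx1 lies right of 0 at 1 dpw (0.54) and left of it at 5 dpw (-0.56), and Txnrd1 lies right of 0 at both times (0.24 and 0.48).

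Of 49 other redox genes listed by role, 48 had a row in the files. In macrophage-like against neutrophil-like cells, of the other oxidase genes, Hvcn1, the proton channel that offsets the charge the oxidase moves (2.48 to 3.04), BC017643 (0.83 to 1.23) and Rap1a (0.81 to 1.04) were higher in all 4 libraries. Of 7 genes for superoxide and peroxide removal, 4 were higher, where 49.0% of all genes were higher and 11.2% lower, among them the peroxiredoxins Prdx4 (5.83 to 6.99) and Prdx2 (4.04 to 6.54) and the catalase gene Cat, and Prdx5 was lower. In the thioredoxin group Txn2 was higher, and Glrx, a glutaredoxin, and Txnip, an inhibitor of thioredoxin, were lower, of 5 measured. Among 6 glutathione genes, Gsto1 (3.38 to 5.30) and Gclc were higher and the cystine carrier subunit Slc7a11 (-3.72 to -2.03) and the glutathione reductase Gsr (-2.78 to -1.51) lower. Both Idh1 (4.21 to 4.69) and Pgd (0.65 to 0.79), sources of NADPH, were higher of 3 measured, and so were Keap1 (2.25 to 3.41) and Hmox1 (1.46 to 2.72) of 4 regulators and targets, where Nfe2l2 was lower (-1.17 to -0.65). Relative to the median of all genes, BC017643, Rap1a, Txn2, Gclc, Pgd and Hmox1 no longer passed as higher, and Rac1, Prdx6, Txn1, Mgst1 and Bach1 passed as lower, so that on this scale fewer of the listed genes were higher and more were lower.

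Between the days, neutrophil-like cells of both genotypes held more Prdx2, Sod1 and Gpx4 and less Prdx5 at 5 dpw, of 5 measured genes of their group, and more Txnip (1.31 and 1.37) and less Glrx (-1.28 and -1.15). Gclc and Keap1 were also higher, and Mgst1, G6pdx and the nitric oxide synthase gene Nos2 lower. Of all genes, 48.3% were higher and 3.2% lower in this comparison. Relative to the median gene only Prdx2 and Txnip of these were still higher (14.9% of genes). Prdx5, Glrx, Mgst1, G6pdx and Nos2 were still lower (15.2% of genes). Prdx6, Txn1, Srxn1, Gclm, Gsr, Slc7a11, Bach1 and Hmox1 passed as lower on this scale as well. In macrophage-like cells, where 10.3% of all genes were higher and 7.2% lower, Prdx6 (-1.52 and -1.50) and Prdx5 (-1.15 and -1.15) were lower and Cat and Prdx3 higher, of 8. Slc7a11 (-1.86 and -1.25), Gsr, Glrx and Txn1 were also lower and Gclm (1.04 and 1.04), Gsto1, Gss and Txn2 higher, of which Gss and Txn2 no longer passed relative to the median gene. Nos2 was lower in these cells as well (-2.74 and -2.72). Of the genes that were lower at 5 dpw, Prdx5, Slc7a11, Gsr and Glrx were higher in neutrophil-like than in macrophage-like cells. Neutrophil markers in the macrophage-like sums were 21882 and 18551 CPM at 1 dpw and 3722 and 4942 CPM at 5 dpw. Their part in these ratios was not tested. For genotype, Prdx2 in neutrophil-like cells was lower in Angptl4-/- on both days (-1.61 and -0.92), of 5 measured of its group. Of all genes, 1.02% passed either way there. Prdx2 stood far higher in macrophage-like cells, and the part of carried-over RNA in this ratio was not tested. Gsto1 and Hmox1 in dendritic cell-like cells were also lower on both days (Gsto1 not relative to the median gene), where 0.71% of genes passed. No other listed gene with enough UMIs passed in these classes or in monocyte-like and macrophage-like cells as whole classes. Within clusters, Prdx2 was lower in macrophage-like cluster 1, Mgst1 was lower in neutrophil-like clusters 3 and 5 (in cluster 5 not relative to the median gene), and Gclm was higher in cluster 6. The share of all genes that passed within these clusters is not given here, so these calls have no background beside them. In NK/T cell-like cells most listed genes had too few UMIs for this comparison.

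Finally, each member was set beside all 7099 genes with at least 1000 UMIs over 18 profiles of a class in a library, which share their libraries and their classes. The genes with the most similar profiles by Pearson correlation of log2(CPM + 1) were Plac8 and Naip5 for Cybb (0.97 and 0.97), Gpx1 and Asah1 for Cyba (0.98 and 0.98), Eepd1 and Pira2 for Ncf1 (0.95 and 0.95), Mtus1 and Gm5150 for Ncf4 (0.97 and 0.96), and Lbr and Ripor2 for Rac2 (0.95 and 0.92). For the antioxidant genes they were Rap2c and Parp10 for Sod2 (0.98 and 0.97), Clec4a1 and Hpse for Gpx1 (0.98 and 0.98), Blvra and Snx2 for Prdx1 (0.99 and 0.98), and Cars and Klhl28 for Txnrd1 (0.85 and 0.85). Among the members, Cyba, Gpx1 and Cybb had the closest profiles, with 0.98 for Cyba and Gpx1 and 0.92 for Cybb with either, while Rac2 ran against Gpx1 (-0.62) and Cyba (-0.61).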

How the data were processed

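Per the labels and methods, the authors aligned reads to mm10 with Cell Ranger 3.1.0 and deposited a matrix of UMI counts per gene and cell for each library; they used Seurat 3.0 for their own clustering, which was not used here. From the deposited counts, cells with at least 200 genes and at most 10% mitochondrial UMIs were kept, integrated by anchors and clustered (Seurat 5.3.0, R 4.3.3, 2000 variable genes without the members and listed redox genes, 30 dimensions, resolution 0.5). Classes were named from marker lists. Doublets were scored with Scrublet (scanpy 1.11.5) and kept in the sums, with an alternative that left out the 4% highest scores per library. Levels are class sums per 1000000 UMIs with exact Poisson intervals, and ratios have exact conditional binomial intervals (scipy 1.17.1, 95%). The ratio intervals were run on counts simulated under the same counting model, which leaves out spread between cells and mice and so cannot test them for it. A gene entered a comparison with at least 100 UMIs over both sides, and 1.5-fold was the size reported. There was 1 library per group, so no p-value was computed. All 9 members are named; of the other redox genes, up to 3 per role were named by the smallest of their ratios across libraries, and further ones (such as Prdx5, Prdx3 and Gss) were chosen after their values were seen; 1 listed oxidase gene is not reported here. The members and lists were chosen with earlier results of these data known.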

Additional observations from a re-analysis of the deposited data

How the results depend on the processing

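No paired analysis was possible because each group had 1 library. Leaving out a replicate was likewise not possible. The ratios recomputed were those of macrophage-like against neutrophil-like cells, and of days and genotypes within those classes. Ratios with other classes and between clusters were not among them. Of 972 values recomputed (108 log2 ratios under 9 alternatives), 6 that had been past 1.5-fold changed sign, all in macrophage-like against neutrophil-like cells. Under median-of-ratios scaling these were Cyba at 1 dpw, at -0.29 in Angptl4+/+ and -0.44 in Angptl4-/- wounds. As mean UMIs per cell they were Rac2 at 5 dpw, at 0.36 and 0.74, and Sod2 (1.15) and Txnrd1 (1.01) at 5 dpw in Angptl4-/- wounds. The 5 members past 1.5-fold in this comparison, 4 higher and 1 lower, became 3 higher and 4 lower under median scaling and 5 higher and 0 lower as UMIs per cell. For 5 against 1 dpw in neutrophil-like cells the count of 2 became 4 under median scaling and 4 as UMIs per cell (Cybb, Ncf1, Rac2 and Sod2, all lower, 1 of them in the original count) and 1 at 2-fold (Cybb). In macrophage-like cells the count of 1 became 2 as UMIs per cell (Cybb and Gpx1, higher) and 0 at 2-fold. Many more single ratios left their original counting interval without being among the 6 that changed sign. Of the 108, these were 93 as mean UMIs per cell, 74 under median scaling and 59 when thinned to 1000 UMIs per cell. They were 52 as the mean of per-cell CPM, 36 at resolution 1.0 and 28 with each cluster weighing the same. At most 1 did so with a stricter cell filter, without the highest doublet scores or without integration. The cause of all these shifts was not tested. For the counts as UMIs per cell or at 2-fold, the share of all genes was not computed, so they have no background beside them. Median UMIs per neutrophil-like cell were 4683 (Angptl4+/+) and 4636.5 (Angptl4-/-) at 1 dpw and 3218 and 3393 at 5 dpw. In macrophage-like cells they were 6838 and 5833 at 1 dpw and 8335 and 11474 at 5 dpw. Giving each cluster of a class the same weight was chosen after seeing the data. With 1 library per group, no difference between days or genotypes has a measure of the spread between mice.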
